A study of Mus musculus with 8 samples.

Results

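Erythroid membrane and transcription factor genes were followed in RNA sequencing libraries of mouse bone marrow neutrophils, either wild type (WT) or knocked out for Padi4 (Padi4 KO). The set held 37 genes chosen by symbol, of which 36 had a row among the 24421 genes of the count table. Epb41 and Epb42 stood there under their older symbols, Epb4.1 and Epb4.2. Ahsp, which encodes the chaperone of free alpha globin, was not analysed here. The set was proposed with the erythroid signal of the Padi4 KO libraries already known, so every difference in level between Padi4 KO and WT below is given as a description, and counts of calls between the genotypes support nothing. The question put to these genes was which stage of red cell maturation that signal resembled.

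The 8 libraries formed 4 groups of 2. WT and Padi4 KO neutrophils, both from mice of C57BL/6 background aged 8 weeks, were left without stimulus or received R848, a small-molecule agonist of Toll-like receptor 7, at 1 µg/ml for 6 h. The Padi4 KO mice carried a germline deletion of the first exon of Padi4, which encodes peptidylarginine deiminase 4. The labels name no further allele or agent. The cells were isolated from marrow magnetically, and the methods of the study give a high purity of cells with CD11b and Ly6G at the surface. The sample titles give 0 h for the unstimulated libraries whereas the protocol gives 6 h of incubation, and where the titles hold, each R848 difference also contains the time in culture. The methods of the study state that samples were run in duplicate. Neither they nor the labels say whether the libraries of a group came from separate mice. The p-values then measure only the spread between these libraries.

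Red cells arise from progenitors that express Kit and Gata2 and then switch to a programme run by GATA1, TAL1, LMO2 and KLF1. Proerythroblasts take up iron through the transferrin receptor and depend on the erythropoietin receptor. Basophilic and polychromatic erythroblasts then build the membrane skeleton around band 3, spectrin and ankyrin, and fill with hemoglobin. Orthochromatic erythroblasts and reticulocytes stop dividing, expel the nucleus and clear their organelles. The genes were placed by hand in an early class (18 genes, progenitor to proerythroblast), a middle class (11 genes with a row, basophilic to polychromatic) and a late class (7 genes, orthochromatic to reticulocyte). These classes rest on general knowledge, since no staged reference was used here. Of the 36 members, 10 are also widely used by other cells (Tfrc, Bnip3l, Xpo7, Lmo2, Nfe2, Epb41, Car2, Aqp1, Tspan33 and Bpgm), and the other 26 are called erythroid-restricted below for short, although Gata1, Tal1, Zfpm1 and Gfi1b also act in megakaryocytes.

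The libraries held 562446 to 668857 counts on genes in WT and 716440 to 1177972 in Padi4 KO, so raw counts below compare unequal depths. A count of 3 corresponded to 2.55 to 5.33 CPM, which are counts scaled to a common library size. Padi4 had 590 and 527 counts in unstimulated WT, 166 and 234 in WT with R848, and 21 to 54 in the 4 Padi4 KO libraries. Neutrophil markers (S100a9, S100a8, Ngp and Ltf the highest) summed to 141832 and 147978 CPM in unstimulated WT and to 115331 and 117090 CPM in unstimulated Padi4 KO, with no overlap, and 9 of the 10 listed were in the table. After R848 the same list summed to 119946 and 134776 CPM in WT and to 95670 and 96615 CPM in Padi4 KO.

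Promoter sequence is shown for members with an E-box and GATA composite, the arrangement bound by the TAL1 and GATA1 complex, because that complex contains members of the set. RefSeq promoter windows on GRCm38.p6, 250 bases before to 50 after each start, were found for 27 of the 37 genes in 38 windows. None was used for Car1, Car2, Slc4a1, Ank1, Nfe2, Cldn13, Bnip3l, Lmo2, Xpo7 and Ahsp. The composite was searched on both strands as CTG, then 8 or 9 bases of any kind, then GATAA. It was present in 9 of the 38 windows (23.7%), each of a different gene (Gfi1b, Epb42, Hemgn, Ermap, Tfr2, Kel, Klf1, Icam4 and Rhag), against 480 of all 32841 windows (1.46%). For 5 of these the composite lay outside the annotated gene, and these are printed with 20 bases before it and up to 20 after, along the strand of the gene, with the composite in capitals. Gfi1b lies on the minus strand at chr2:28622077-28622133, Epb42 on the minus strand at chr2:121037073-121037123, Ermap on the minus strand at chr4:119190026-119190082, Kel on the minus strand at chr6:41704356-41704412, and Klf1 on the plus strand at chr8:84901882-84901927.
Gfi1b: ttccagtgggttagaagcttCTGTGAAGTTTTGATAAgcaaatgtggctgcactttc
Epb42: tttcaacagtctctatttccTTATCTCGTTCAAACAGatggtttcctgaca
Ermap: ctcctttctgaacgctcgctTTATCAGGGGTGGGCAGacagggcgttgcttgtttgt
Kel: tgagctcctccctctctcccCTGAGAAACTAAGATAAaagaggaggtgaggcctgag
Klf1: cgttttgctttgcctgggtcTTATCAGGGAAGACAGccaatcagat
In Gfi1b and Kel the composite reads along the gene, and in Epb42, Ermap and Klf1 it reads on the opposite strand. A GATA motif (the letters GATA with A or T before them and A or G after them, on either strand, which can overlap the composite) was in 20 of the 38 windows (52.6%) against 29.8% of all windows. The KLF1 type motif CCNCNCCCN was in 65.8% against 49.4%, and the NFE2 type motif TGANTCA in 5.26% against 7.81%. These are matches of letters, given as a description.

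The 26 erythroid-restricted members gave a clear but small signal in the Padi4 KO libraries and a trace in WT. Their summed counts were 105 and 79 in unstimulated WT, 1176 and 1844 in unstimulated Padi4 KO, 12 and 20 in WT with R848, and 1926 and 1909 in Padi4 KO with R848. As CPM of the library total, the sums were 152 ± 16.5 (SD, n = 2) in unstimulated WT, 1657 ± 22.1 in unstimulated Padi4 KO, 24.8 ± 7.24 in WT with R848 and 1659 ± 34.1 in Padi4 KO with R848. The sum was thus 10.9-fold higher in Padi4 KO than in WT before stimulation (95% exact counting interval 9.36 to 12.7) and 66.3-fold higher after R848 (46.9 to 97.1). With R848 the sum was 6.11-fold lower in WT than without it (4.18 to 9.20), whereas the means of the Padi4 KO groups differed by less than their SD. In such mixed samples, fewer cells of a type and less RNA per cell cannot be told apart, and the intervals cover counting error only.

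**Figure D1:**
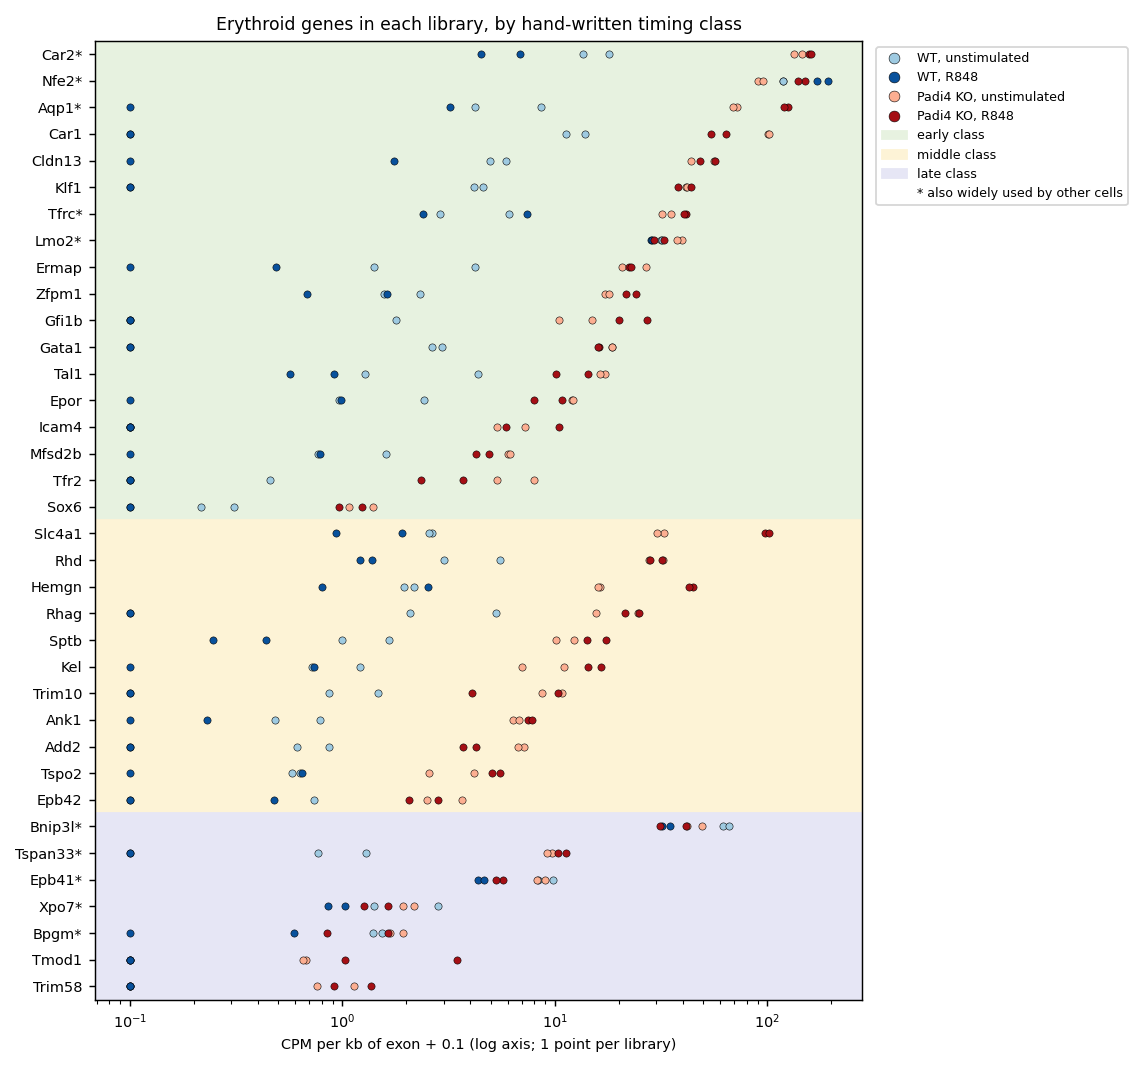
Level of each member in each of the 8 libraries, in CPM per kb of exon plus 0.1 on a log axis, with members ordered by timing class and by their level in Padi4 KO. Within a condition the Padi4 KO points stand to the right of the WT points for all members but Nfe2 and Bnip3l, and Epb41 and Xpo7 before stimulation. Of the late genes Tspan33 has the widest gap among those with a count in WT, and Tmod1 and Trim58 are low in Padi4 KO and at 0 in WT.

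Before stimulation, 28 of 36 members passed a false discovery rate (FDR) of 0.1 as higher in Padi4 KO (background 9.54% of the 12254 genes tested) and Bnip3l and Nfe2 passed as lower (background 14.4%). After R848, 29 passed as higher (background 9.44%) and Nfe2 as lower (background 7.84%). In CPM scaled by edgeR, both Padi4 KO libraries lay above both WT libraries for 32 members before stimulation (background 25.3%) and for 34 after R848 (background 30.2%). Before stimulation Nfe2 and Bnip3l lay below WT (background 30.1%) and Epb41 and Xpo7 overlapped, and after R848 Nfe2 lay below WT (background 19.9%) and Bnip3l overlapped. The set was chosen with this contrast known and nothing is read from these counts. The lower calls were 0 in both comparisons when libraries were scaled by size alone.

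The ratio of Padi4 KO to WT before stimulation was above 1 for each erythroid-restricted member with a count in WT, and 3 (Trim58, Icam4 and Tmod1) had none. It ran from 6.62 for Mfsd2b, a lipid transporter of red cells, to 44.3 for Tfr2, whose WT total was a single count. WT totals were at most 3 counts for 10 of the 26, so most intervals are wide. Members with more counts were Slc4a1 (15.1, interval 9.04 to 27.3), Klf1 (11.9, 5.88 to 28.1), Car1 (9.96, 6.26 to 16.8) and Gata1 (8.44, 4.12 to 20.1). Of the 10 widely expressed members, Car2, Tfrc, Aqp1 and Tspan33 had intervals that held 10.9, the ratio of the restricted sum, and the other 6 ran from 0.890 for Bnip3l to 1.54 for Bpgm. With 105 and 79 restricted counts in the unstimulated WT libraries, the makeup of their erythroid signal could not be set against that of Padi4 KO with any precision.

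**Figure D2:**
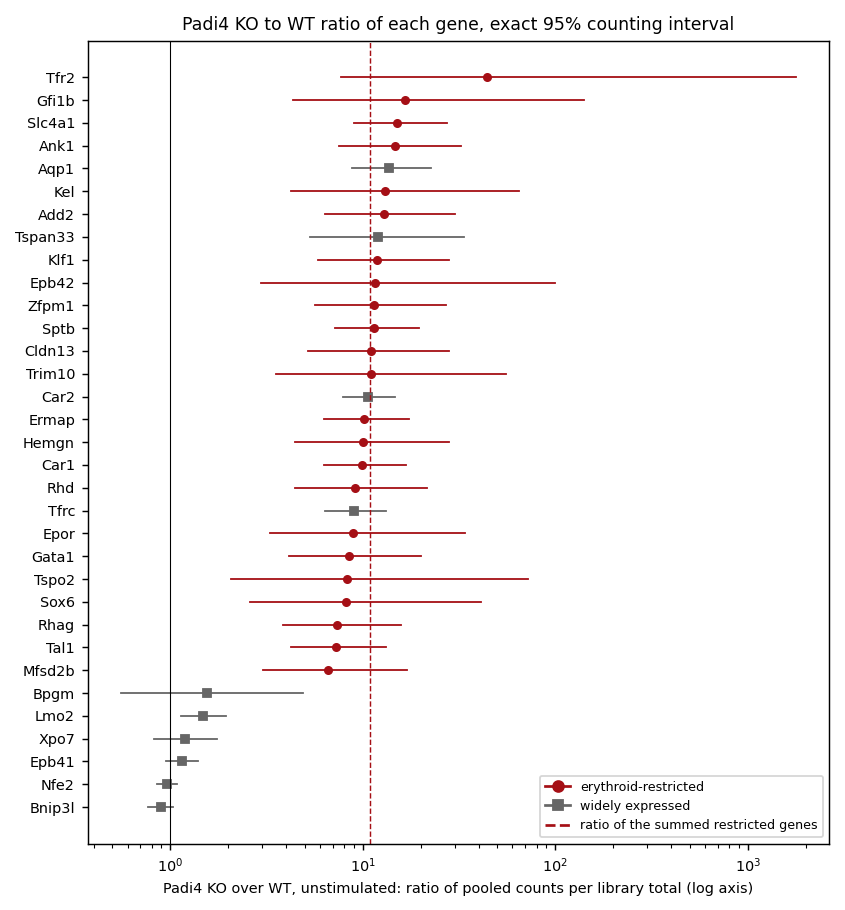
Ratio of Padi4 KO to WT before stimulation for each member with a count in WT, from pooled counts per library total on a log axis, with exact 95% counting intervals. The erythroid-restricted genes (red circles) lie around the dashed line at 10.9, and 6 of the widely expressed genes (grey squares) lie near 1.

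Among the transcription factors, Gata1, the master regulator of the lineage, had 4 and 4 counts in unstimulated WT, 40 and 62 in unstimulated Padi4 KO, 0 and 0 in WT with R848, and 44 and 42 in Padi4 KO with R848. Klf1, which drives globin and membrane genes, had 4 and 4, 56 and 88, 0 and 0, and 65 and 73 in the same order. Both were high in every Padi4 KO library, low in unstimulated WT and at 0 in WT with R848. Tal1, the E-box binding partner of GATA1, had 12 and 3 in unstimulated WT, 66 and 98 in unstimulated Padi4 KO, 1 and 2 in WT with R848, and 70 and 48 in Padi4 KO with R848. Zfpm1, the GATA1 cofactor also named FOG1, had 5 and 3, 53 and 86, 1 and 3, and 95 and 82. Gfi1b, a repressor needed in erythroid and megakaryocytic cells, had 2 and 0, 24 and 26, 0 and 0, and 41 and 54. In scaled CPM these 5 genes lay higher in both Padi4 KO libraries than in both WT libraries of each condition (background 25.3% and 30.2%). Hemgn, a nuclear protein of differentiating erythroblasts, had 3 and 3 counts in unstimulated WT, 36 and 55 in unstimulated Padi4 KO, 3 and 1 in WT with R848, and 126 and 117 in Padi4 KO with R848. Sox6, which acts in definitive erythroid maturation, stayed low, with 2 and 1, 17 and 20, 0 and 0, and 19 and 14. Lmo2, the bridge between TAL1 and GATA1, is also used by other marrow cells. It had 44 and 40 counts in unstimulated WT, 76 and 112 in unstimulated Padi4 KO, 30 and 35 in WT with R848, and 79 and 69 in Padi4 KO with R848. Nfe2, which is also active in megakaryocytes and myeloid cells, was abundant in every library, with 228 and 206, 239 and 391, 251 and 324, and 507 and 452.

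Of the receptors and iron uptake genes, Tfrc, the transferrin receptor, had 24 and 10 counts in unstimulated WT, 192 and 271 in unstimulated Padi4 KO, 22 and 8 in WT with R848, and 288 and 273 in Padi4 KO with R848. Epor, the erythropoietin receptor, had 3 and 1, 21 and 33, 0 and 1, and 24 and 17. Tfr2, a partner of the erythropoietin receptor in early erythroblasts, had 1 and 0, 20 and 47, 0 and 0, and 11 and 17. Each of these 3 genes lay higher in both Padi4 KO libraries than in both WT libraries of each condition, in scaled CPM (background 25.3% and 30.2%).

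Among carriers, channels and carbonic anhydrases, Slc4a1 encodes band 3, the anion exchanger that anchors the membrane skeleton. It had 8 and 7 counts in unstimulated WT, 140 and 203 in unstimulated Padi4 KO, 2 and 5 in WT with R848, and 535 and 544 in Padi4 KO with R848, the highest of any restricted member. Car1 and Car2 encode carbonic anhydrases, of which Car1 appears early in erythroid commitment. Car1 had 9 and 10 counts in unstimulated WT, 111 and 175 in unstimulated Padi4 KO, 0 and 0 in WT with R848, and 90 and 74 in Padi4 KO with R848. Car2 had 28 and 19, 311 and 446, 8 and 6, and 428 and 421. Aqp1, the water channel that carries the Colton antigen, had 7 and 13 in unstimulated WT, 167 and 248 in unstimulated Padi4 KO, 4 and 0 in WT with R848, and 370 and 342 in Padi4 KO with R848. Rhag, the partner of the Rh proteins, had 3 and 7, 32 and 79, 0 and 0, and 65 and 54. Mfsd2b, a sphingosine-1-phosphate exporter, had 5 and 2, 27 and 43, 0 and 2, and 24 and 27.

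For the blood group and surface proteins, Rhd had 3 and 5 counts in unstimulated WT, 39 and 71 in unstimulated Padi4 KO, 1 and 1 in WT with R848, and 50 and 55 in Padi4 KO with R848. Kel, which carries the Kell antigen, had 2 and 1, 17 and 42, 0 and 1, and 51 and 43. Ermap, which carries the Scianna antigen, had 14 and 4, 126 and 150, 1 and 0, and 132 and 131. All 3 lay higher in both Padi4 KO libraries than in both WT libraries of each condition, in scaled CPM (background 25.3% and 30.2%). Cldn13, a rodent claudin of erythroblasts, had 4 and 3 counts in unstimulated WT, 53 and 64 in unstimulated Padi4 KO, 0 and 1 in WT with R848, and 68 and 56 in Padi4 KO with R848. Tspan33, a tetraspanin of late erythroblasts that is also used by B cells, had 4 and 2, 44 and 65, 0 and 0, and 60 and 63. Icam4, which carries the LW antigen, averaged below 10 counts in Padi4 KO, with 7 and 8 in the unstimulated libraries and 13 and 7 with R848, and had 0 counts in all 4 WT libraries.

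In the membrane skeleton, Sptb encodes beta spectrin. It had 7 and 11 counts in unstimulated WT, 108 and 204 in unstimulated Padi4 KO, 2 and 1 in WT with R848, and 193 and 228 in Padi4 KO with R848. Ank1, which ties spectrin to band 3, had 6 and 3, 75 and 124, 0 and 1, and 112 and 113. Add2, the beta adducin that caps actin, had 5 and 3, 63 and 92, 0 and 0, and 41 and 46. Epb42, protein 4.2, had 0 and 2, 17 and 18, 1 and 0, and 12 and 16. In scaled CPM these 4 genes lay higher in both Padi4 KO libraries than in both WT libraries of each condition (background 25.3% and 30.2%). Epb41, protein 4.1, which many cells use, overlapped before stimulation. It had 85 and 90 counts in unstimulated WT and 125 and 178 in unstimulated Padi4 KO. With R848 it had 33 and 41 in WT and 101 and 90 in Padi4 KO. Tmod1, which caps the slow-growing end of actin, had 0 counts in all 4 WT libraries, 2 and 3 in unstimulated Padi4 KO, and 15 and 4 with R848. Sptb, Ank1 and Tmod1 overlap a gene on the opposite strand, and the strand setting of the counting is not given in the sources used here.

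The last group held genes of metabolism and remodelling. Trim10, an erythroid ubiquitin ligase, had 2 and 1 counts in unstimulated WT, 17 and 33 in unstimulated Padi4 KO, 0 and 0 in WT with R848, and 10 and 25 in Padi4 KO with R848. Tspo2, a cholesterol-binding protein of erythroblasts, had 1 and 1, 7 and 18, 0 and 1, and 18 and 19. Trim58, a ligase that acts before the nucleus is expelled, had 2 to 3 counts in each Padi4 KO library and 0 in WT. Bpgm, which makes 2,3-bisphosphoglycerate, had 3 and 3 counts in unstimulated WT, 5 and 9 in unstimulated Padi4 KO, 0 and 1 in WT with R848, and 3 and 6 in Padi4 KO with R848. Per kb it stood at 1.29 and 1.44 CPM in unstimulated WT and at 1.57 and 1.82 CPM in unstimulated Padi4 KO, a narrow gap at so few counts. Bnip3l, the receptor that removes mitochondria from reticulocytes, had 154 and 147 counts in unstimulated WT, 143 and 262 in unstimulated Padi4 KO, 60 and 76 in WT with R848, and 179 and 131 in Padi4 KO with R848. Xpo7, a nuclear exporter of maturing erythroblasts, had 16 and 30, 35 and 48, 7 and 10, and 33 and 24, and its exons overlap Npm2 on the same strand. Per library total, the unstimulated Padi4 KO to WT ratio was 0.890 for Bnip3l (0.765 to 1.04) and 1.19 for Xpo7 (0.823 to 1.75), and both intervals held 1. With the scaling of edgeR Bnip3l passed as lower in unstimulated Padi4 KO, and by library size alone it did not.

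Levels were compared between genes per kb of exon, in CPM per kb after scaling of the libraries by edgeR. In unstimulated Padi4 KO the highest members were Car2 (139 ± 8.19, SD, n = 2), Car1 (101 ± 0.825), Nfe2 (92.6 ± 3.18) and Aqp1 (70.1 ± 2.39), all early class genes. In unstimulated WT, Car2 stood at 15.7, Car1 at 12.5 and Aqp1 at 6.33, but Nfe2 stood at 118, above its Padi4 KO level. Cldn13 (49.8 ± 8.94), Bnip3l (45.6 ± 5.20), Klf1 (41.5 ± 0.243) and Lmo2 (38.6 ± 1.53) followed. Bnip3l also lay below its WT level before stimulation, so the ranks of Nfe2 and Bnip3l are not read as erythroid signal. The levels of Cldn13, Bnip3l and Klf1 lay within the spread of Cldn13, whereas Aqp1 stood above Cldn13, and Klf1 above Lmo2, by more than either SD. The middle class was led by Slc4a1 (31.2 ± 1.59) and Rhd (29.97 ± 3.29), which did not differ beyond their spread. The late restricted genes Trim58 (0.846 ± 0.261) and Tmod1 (0.562 ± 0.0152) were the lowest of the set. In Padi4 KO with R848 the order changed, with Car2 (158 ± 1.90), Nfe2 (145 ± 8.33), Aqp1 (122 ± 3.91) and Slc4a1 (99.7 ± 3.54) at the top and Car1 at 59.3 ± 6.78. Nfe2 stood at 182 in WT with R848, again above Padi4 KO.

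Summed by class, the restricted members of the early class made up 70.1% and 65.8% of the CPM per kb in the unstimulated Padi4 KO libraries, and 53.1% and 50.5% in those with R848. The middle class made up 29.5% and 34.0%, and then 46.2% and 49.1%. The late class, which had only Tmod1 and Trim58 as restricted members, held 0.347% and 0.264%, and then 0.784% and 0.414%. The unstimulated WT libraries, with few counts, had 73.4% and 61.1% in the early class and 26.6% and 38.9% in the middle class. With the widely expressed members included, the early class held 77.7% and 74.6% in unstimulated Padi4 KO and 71.8% and 70.8% with R848. Unstimulated WT, with its trace of erythroid counts, held 71.1% and 67.4% by this sum. The early share of all members is thus not read as the stage of the erythroid signal. The late class then held 7.22% and 7.95% in unstimulated Padi4 KO, 5.78% and 4.91% with R848, and 24.1% and 26.1% in unstimulated WT. Its widely expressed member Tspan33 was 12.02-fold higher in Padi4 KO than in WT before stimulation (interval 5.35 to 33.5), and its interval held the ratio of the restricted sum.

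Most of the difference between the classes came from 3 genes. In CPM per kb the restricted middle class summed to 146 in unstimulated Padi4 KO and 253 with R848, a difference of 107, of which Slc4a1 made up 68.5 and Hemgn 27.6. The restricted early class summed to 313 and 275, a difference of -38.0, to which Car1 gave -41.8 and Gfi1b 10.9. Without Slc4a1, Hemgn and Car1, left out because their differences were the largest, the early class held 71.4% and 64.3% of the restricted CPM per kb in unstimulated Padi4 KO and 66.8% and 64.5% with R848. That choice makes the class difference smaller by construction, and nothing is read from it on the remaining genes.

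In Padi4 KO the erythroid-restricted sum, per library total, was at the same level with R848, but its makeup differed. Slc4a1 gave 140 and 203 of its counts without R848 and 535 and 544 with R848. The level of the sum is thus not that of each member. By library size alone the median log2 fold change was -0.34 over the 36 members and -0.41 over all genes. Between Padi4 KO unstimulated and with R848, 3 of 36 members rose by more than 2-fold at an FDR below 0.1 (background 8.09% of genes tested) and 1 fell (background 8.83%). The 3 were Slc4a1, Hemgn and Tmod1, and the 1 was Tfr2. Without the 2-fold limit 10 members rose (background 19.2%) and 6 fell (background 15.9%), and the median log2 fold change was 0.04 over the members against -0.03 over all genes tested. The counts over 2-fold stand near the background and are no result about the set, and what follows concerns single members.

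Slc4a1 rose by 1.68 ± 0.10 on the log2 scale (log2 fold change ± SE, edgeR adjusted p = 3.51e-57) and Hemgn by 1.45 ± 0.18 (adjusted p = 3.59e-15). Tmod1 rose by 1.89 ± 0.71 (adjusted p = 0.0289), but 15 of its 19 counts came from replicate 1 with R848 and without that library the change was 0.56 and not called. It was not called with DESeq2 either. The smaller rises were Gfi1b at 0.95 ± 0.26, Aqp1 at 0.81 ± 0.11, Kel at 0.70 ± 0.25, Nfe2 at 0.64 ± 0.10, Sptb at 0.47 ± 0.12, Zfpm1 at 0.38 ± 0.17 and Tfrc at 0.30 ± 0.11. Tfr2 fell by 1.21 ± 0.33 (adjusted p = 0.00112), and without replicate 2 of unstimulated Padi4 KO its change was -0.83 and not called, nor was it called with DESeq2. Smaller falls were measured for Add2 (-0.80 ± 0.20), Car1 (-0.77 ± 0.15, adjusted p = 2.6e-06), Epb41 (-0.64 ± 0.14), Tal1 (-0.44 ± 0.18) and Bnip3l (-0.35 ± 0.12). Klf1 (-0.03 ± 0.18), Ermap (-0.05 ± 0.14), Rhd (-0.03 ± 0.20) and Gata1 (-0.21 ± 0.22) did not pass the test. By library size alone Klf1 (-0.41), Ermap (-0.42) and Gata1 (-0.59) passed as lower, and Rhd (-0.41) did not.

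The fold changes depend on how the libraries are scaled. The trimmed mean of M values (TMM) factors were 1.24 and 1.25 in unstimulated Padi4 KO and 0.956 and 0.960 in Padi4 KO with R848, and scaling by library size alone moved the median of all genes from -0.03 to -0.41. Under that scaling 6 members rose and 14 fell, in place of 10 and 6. Calls over all genes at the FDR alone moved the same way, to 1264 higher and 3820 lower in place of 2353 and 1945. With DESeq2, the tool of the study, 4 members rose (Aqp1, Hemgn, Nfe2 and Slc4a1) and 2 fell (Car1 and Epb41) at the FDR alone. Over all genes DESeq2 called 1206 higher and 915 lower, where edgeR called 2353 and 1945. The calls of the other 10 (Add2, Bnip3l, Gfi1b, Kel, Sptb, Tal1, Tfr2, Tfrc, Tmod1 and Zfpm1) were lost. Their fold changes kept their sign, for example -1.25 for Tfr2, 1.86 for Tmod1 and 0.21 for Tfrc. Slc4a1, Hemgn, Car1 and Epb41 kept their direction and their call under all alternatives tried. Aqp1 and Nfe2 lost their call only when libraries were scaled to the summed restricted members, a scaling added after seeing the data. Tfrc turned to -0.07 under library size alone, and 7 of the smaller changes lost their call when a single library was left out. Gfi1b was 0.66 without replicate 2 of unstimulated Padi4 KO and 0.58 without replicate 2 of Padi4 KO with R848, and Bnip3l was -0.20 and -0.29 without the same libraries. Kel was 0.47 and 0.46 without replicate 1 of unstimulated Padi4 KO and of Padi4 KO with R848, and Sptb was 0.19 without replicate 2 of Padi4 KO with R848. Tal1 ran from -0.48 to -0.35 without either unstimulated Padi4 KO library or replicate 2 with R848. Tfrc ran from 0.15 to 0.23 and Zfpm1 from 0.15 to 0.42 when any library with R848 or replicate 2 of unstimulated Padi4 KO was left out, and Zfpm1 also without replicate 1 of the latter.

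**Figure D3:**
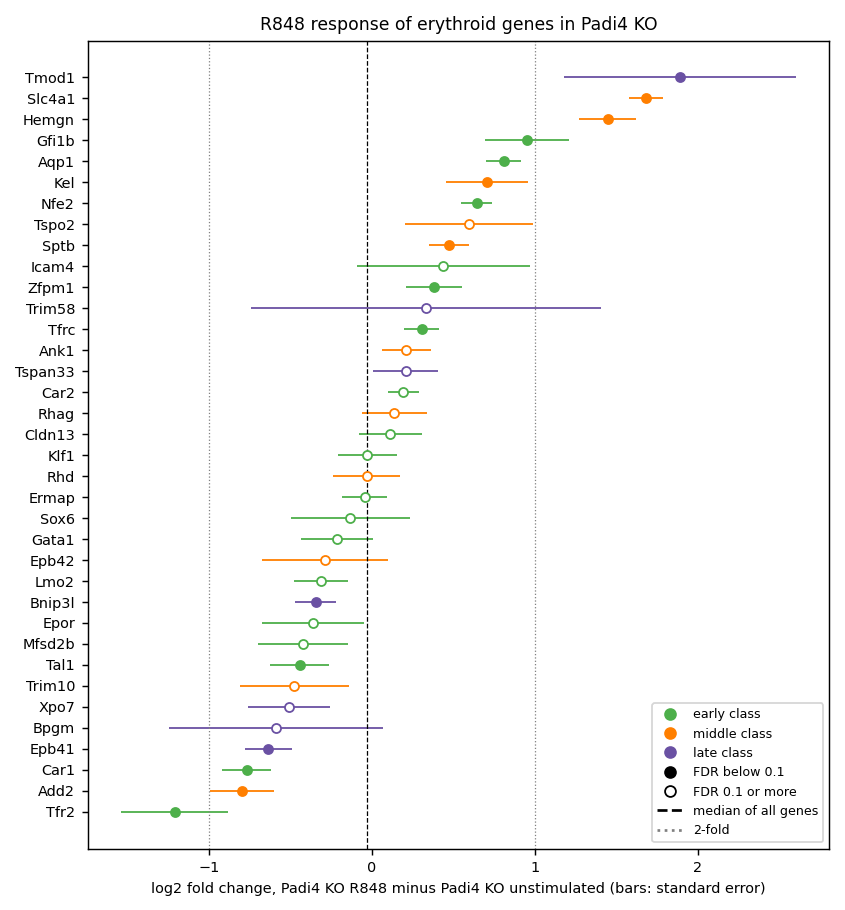
Log2 fold change of each member between Padi4 KO with R848 and Padi4 KO unstimulated, with its standard error, coloured by timing class and filled where the FDR is below 0.1. Slc4a1 and Hemgn of the middle class lie right of the 2-fold line with short bars, Tmod1 has a long bar, and Tfr2, Add2 and Car1 lie at the left end. The dashed line is the median of all genes tested, -0.03.

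Shares within the erythroid-restricted signal need no scaling between libraries. Slc4a1 held 11.9% (exact 95% binomial interval 10.1 to 13.9) and 11.01% (9.62 to 12.5) of the restricted counts in unstimulated Padi4 KO, and 27.8% (25.8 to 29.8) and 28.5% (26.5 to 30.6) with R848. Hemgn held 3.06% and 2.98%, and then 6.54% and 6.13%. In the other direction, Car1 held 9.44% and 9.49%, and then 4.67% and 3.88%. Add2 held 5.36% and 4.99%, then 2.13% and 2.41%, Tal1 held 5.61% and 5.31%, then 3.63% and 2.51%, and Tfr2 held 1.70% and 2.55%, then 0.571% and 0.891%. These 6 were named after their values were seen. Over all 26 restricted members, the share was higher in both R848 libraries for 4 (Slc4a1, Hemgn, Gfi1b and Tmod1), against 16.8% of all genes tested set against the same total, and lower in both for 14, against 49.0%. The other 8 overlapped. The 14 were 9 early genes (Car1, Epor, Klf1, Gata1, Ermap, Tfr2, Tal1, Sox6 and Mfsd2b) and 5 middle genes (Rhd, Ank1, Epb42, Trim10 and Add2). The counts of 4 and 14 stand near the background, so no stage is read from this split. A larger share of 1 gene lowers the shares of the others, and with Slc4a1 left out of the total 8 of 25 were higher (background 26.9%) and 8 lower (background 34.6%). Ank1 was then among the higher, and Rhd, Ermap, Epb42, Trim10 and Sox6 overlapped. Car1, Epor, Klf1, Gata1, Tfr2, Tal1, Add2 and Mfsd2b were lower with either total. The counts without Slc4a1 also stand near the background, and these names are a description.

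**Figure D4:**
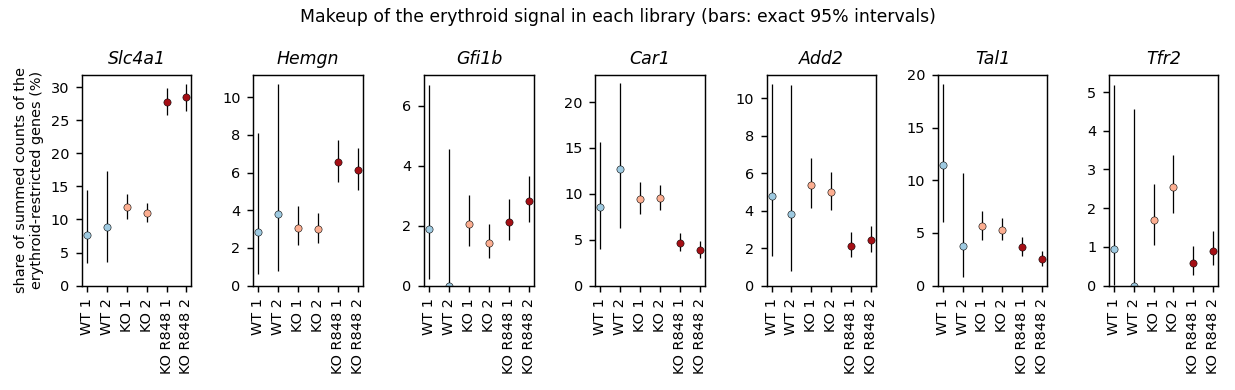
Share of the summed counts of the erythroid-restricted members held by each of 7 genes named after their values were seen, per library, with exact 95% binomial intervals, on axes that start at 0. Slc4a1 and Hemgn stand higher and Car1, Add2, Tal1 and Tfr2 lower in the Padi4 KO libraries with R848, and the unstimulated WT libraries have wide intervals.

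In WT most of the members that passed the test were lower with R848. At an FDR below 0.1 and more than 2-fold, 14 of 36 fell (background 10.8%) and 0 rose (background 7.18%), and 0 also rose by more than 2-fold with DESeq2, while 1 member rose at an unadjusted p under 0.05 in edgeR. The median log2 fold change was -1.67 over the members against -0.17 over all genes. Of the 36, Trim58, Icam4 and Tmod1 had no count in WT, so they could not respond there and passed the filter through Padi4 KO alone. Another 10 were at 0 in WT with R848, and their fitted values are no bounds. Per library total, with such members set at the floor and 4 left out for having at most 3 counts without R848, the median log2 ratio over the other 29 was -1.52. The 14 were Add2, Ank1, Aqp1, Car1, Car2, Epb41, Ermap, Gata1, Klf1, Rhag, Sptb, Tal1, Tspan33 and Xpo7. Against a floor of 3 counts over the WT group with R848, Car1 (19 counts without R848) was at least 6.73-fold lower, Rhag at least 3.54-fold lower, and Gata1, Klf1 and Add2 at least 2.83-fold lower each. These bounds leave out the counting error of the unstimulated libraries, with which the exact 95% upper limit of the ratio of R848 to unstimulated was 0.202 for Car1, 0.420 for Rhag and 0.551 for the other three. The only member that passed as higher at the FDR alone was Nfe2, by 0.62 ± 0.11, close to its 0.64 in Padi4 KO. The count of 14 became 9 without WT replicate 1 with R848 and 5 without replicate 2.

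The difference of the responses, Padi4 KO minus WT, was higher for 10 of 36 members at an FDR below 0.1 (background 3.44%) and lower for 0 (background 1.26%), with 0 lower at an unadjusted p under 0.05 and 0 with DESeq2. This test uses the libraries in which the erythroid signal was known when the set was chosen, so the count is no independent evidence. The 10 were Car1, Car2, Slc4a1, Aqp1, Rhag, Klf1, Gata1, Ermap, Sptb and Bnip3l. For Slc4a1 the difference was 2.55 ± 0.62 (adjusted p = 0.00446) and for Car2 it was 1.71 ± 0.41 (adjusted p = 0.00256). The WT counts behind them were 0 to 14 for all but Car2 and Bnip3l, and the count of 10 became 4 without WT replicate 1 with R848, 1 without replicate 2, and 5 and 4 without unstimulated WT replicates 1 and 2. With DESeq2 it was 3 (Aqp1, Car2 and Slc4a1), where DESeq2 called 35 of all genes and edgeR 421.

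Progenitor genes and other genes outside the set were counted as well. Among the 8 genes of progenitors, Kit had 27 and 25 counts in unstimulated WT and 26 and 28 in unstimulated Padi4 KO, and Myb had 42 and 32, then 35 and 55. Their ratios of Padi4 KO to WT were 0.687 (interval 0.461 to 1.03) and 0.805 (0.585 to 1.11), and both intervals lay below the 10.9-fold ratio of the restricted members. WT had such counts with only a trace of erythroid signal, so the level of Kit and Myb in erythroid cells could not be read. Of the 7 progenitor genes with a count, 4 had intervals below the 10.9-fold ratio (Kit, Myb, Gata2 and Flt3). The other 3 had few counts and intervals that held it (Cd34, Meis1 and Hlf). Mecom was listed at 0 in every library. In Padi4 KO with R848, 0 progenitor genes rose and Kit (-1.02 ± 0.34) and Myb (-0.90 ± 0.26) fell, out of 7 tested (background 19.2% higher and 15.9% lower). In WT with R848, Myb also fell (-0.90 ± 0.30) and Kit was at -0.73 ± 0.34 and did not pass (background 16.0% lower).

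Genes of heme synthesis and mitochondrial iron import were summed over 12 members at 546 and 475 CPM in unstimulated WT, 1160 and 1166 in unstimulated Padi4 KO, 336 and 341 in WT with R848, and 1249 and 1251 in Padi4 KO with R848. In Padi4 KO 5 of 12 rose with R848 (background 19.2%) and 0 fell (background 15.9%), and in WT 1 rose (background 13.5%) and 7 fell (background 16.0%). Slc25a37, the mitoferrin that many cells use, had a ratio of unstimulated Padi4 KO to WT of 1.08 (0.908 to 1.28) and rose with R848 by 1.25 ± 0.11 in Padi4 KO and by 0.67 ± 0.14 in WT. Alas2, the erythroid enzyme that starts heme synthesis and rises late, was chosen after its values were seen. It had 3 and 3 counts in unstimulated WT, 7 and 14 in unstimulated Padi4 KO, 3 and 1 in WT with R848, and 51 and 44 in Padi4 KO with R848, a rise in Padi4 KO of 2.19 ± 0.32 (edgeR adjusted p = 7.25e-11). The difference of its response between the genotypes did not pass (adjusted p = 0.168).

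Of the hemoglobin genes, Hba-a1, Hba-a2, Hbb-b1, Hbb-b2, Hbb-bs, Hbb-bt and Hbb-bh1 were listed at 0 in all 8 libraries. Hbb-y and Hba-x had 1 count each, both in replicate 2 of Padi4 KO with R848. The adult globin genes are near-identical copies and the summary line for reads without a unique position is 0 in all libraries, so their level could not be read here. The stage is therefore described without globin.

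Other lists varied in their own ways. Of the 10 other membrane genes 2 rose and 1 fell in Padi4 KO with R848, of the 10 other transcription factors 3 rose and 3 fell, of the 7 genes of erythropoietin signalling 5 rose and 1 fell, and of the 8 genes of organelle and protein clearance 5 rose and 0 fell at the FDR alone (background 19.2% higher and 15.9% lower). In WT, 0 rose and 4 fell of the membrane genes, 1 and 4 of the factors, 4 and 0 of the signalling genes, and 4 and 0 of the clearance genes (background 13.5% higher and 16.0% lower). Foxo3 is in both the factor and the clearance list. Jak2 and Pim1, from the signalling list, rose by 1.74 ± 0.15 and 1.79 ± 0.10 in Padi4 KO and also passed in WT. Cell cycle genes (Top2a, Rrm2, Mki67 and Ccna2 the highest) summed to 769 and 944 CPM in unstimulated WT, 1424 and 1363 in unstimulated Padi4 KO, 511 and 525 in WT with R848, and 1077 and 1082 in Padi4 KO with R848.

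Markers of other marrow cells also differed between the genotypes, and their part in the results was not tested. Endothelial and stromal genes (Col1a2, Col1a1, Sparc and Kdr the highest) summed to 239 and 203 CPM in unstimulated WT and 581 and 740 in unstimulated Padi4 KO, and to 22.9 and 22.4, then 34.8 and 34.4, with R848. Emcn was listed at 0. Megakaryocyte genes (Ppbp, Pf4, Itga2b and Vwf the highest) summed to 140 and 110, and 264 and 242, then 22.9 and 19.4, and 56.0 and 53.8 CPM. Monocyte genes (Ly6c2, Csf1r, F13a1 and Ms4a6c the highest) summed to 1585 and 1469, and 2208 and 2210, then 1300 and 1488, and 1808 and 1862 CPM. Megakaryocyte and endothelial sums were lower with R848 in Padi4 KO too, whereas the erythroid-restricted sum was not. In that sum Slc4a1 had 140 and 203 counts without R848 and 535 and 544 with it. Macrophage genes summed to 422 to 466 CPM before and 2000 to 2406 CPM after R848, nearly all from Adgre1, Slc40a1 and Vcam1, with C1qa, C1qb, C1qc and Siglec1 at 0 to 3 counts. Eosinophil, basophil and mast cell genes summed to 19.4 to 76.4 CPM and B-lineage genes to 4.92 to 17.6 CPM. Osteoclast genes, nearly all from Acp5, summed to 3.12 and 0 CPM in unstimulated WT, 18.1 and 19.0 in unstimulated Padi4 KO, 1.64 and 8.97 in WT with R848, and 48.4 and 41.4 in Padi4 KO with R848, so they stood higher in Padi4 KO in both conditions, and Acp5 rose with R848 in Padi4 KO by 1.68 ± 0.28. The markers Il5ra, Ebf1, Atp6v0d2, Ocstamp and Dcstamp were at 0 in every library.

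**Figure D5:**
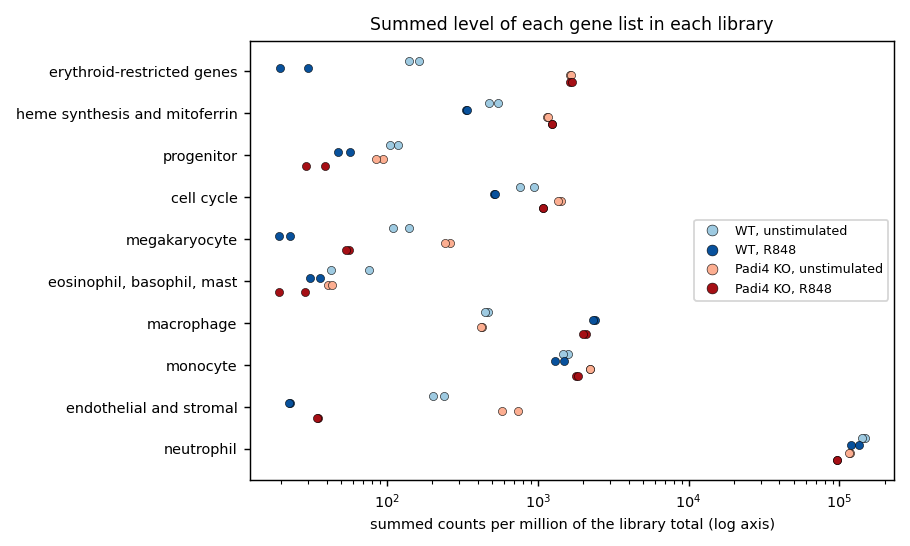
Summed CPM per library total of the erythroid-restricted members and of 9 other gene lists, on a log axis, with 1 point for each library. The erythroid-restricted sum stays at the same level in Padi4 KO with and without R848 and falls in WT, and the endothelial and megakaryocyte sums fall in both genotypes.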

How the data were processed

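The count table was deposited by the authors as raw counts of reads per gene, not normalized, in 8 libraries from a TruSeq kit sequenced paired-end on a MiSeq. According to the study's methods and the submitters' processing notes, reads were trimmed (cutadapt 1.16), filtered (FASTX), aligned to mm10 with STAR (2.5.3a) and counted with HTSeq (0.6.1p1). The annotation and strand setting are not given in the sources used here. Rows that name no gene were left out, and 87.0% to 89.4% of each library lay on genes.

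The members and lists were chosen with earlier results of these data known. Genes with at least 1 count in at least 2 libraries (12254 of 24421) were tested with edgeR 4.0.16 (R 4.3.3): TMM factors, 4 group means, robust quasi-likelihood F tests and Benjamini-Hochberg adjustment over all genes. A response was called at FDR below 0.1 and 2-fold, the thresholds of the study, and differences of responses or genotypes at the FDR alone. DESeq2 1.42.0, which the study used in another version, was an alternative, with 2 other scalings, 2 filters, FDR 0.05, a replicate block and each library left out. Recovery of known fold changes was checked on simulated data. SE is the fold change over the root of F. Levels per kb used union exons of GENCODE M21 on GRCm38, the build named mm10. Ratios pool the 2 libraries with exact intervals, and groups at 0 were set to a floor of 3 counts. Per-library values are given for members with a mean of at least 10 counts in Padi4 KO, and outside that rule for Bpgm, Tmod1 and Icam4, and for each other list up to 4 genes highest in Padi4 KO and any at 0, except for 2 genes that are not reported here. Chi-square over degrees of freedom between replicates was 1.13 in unstimulated WT and 1.05 in unstimulated Padi4 KO. With R848 it was 1.67 in WT and 1.16 in Padi4 KO. Outside WT with R848 the replicates thus lay close to sampling noise, and p-values are not read as variation between mice. The precision is limited by the 562446 to 1177972 counts per library.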

Additional observations from a re-analysis of the deposited data

Results flagged for a closer look

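The R848 response of 10 members was higher in Padi4 KO than in WT by edgeR's test of the difference itself, adjusted over all 12254 genes. The adjusted p was 0.00151 for Aqp1, 0.00256 for Car2, 0.00446 for Slc4a1, 0.00716 for Car1, 0.00722 for Ermap, 0.00969 for Sptb, 0.0186 for Rhag, 0.0596 for Klf1, 0.0856 for Gata1 and 0.0856 for Bnip3l. The differences (log2 ± SE) were 2.87 ± 0.66 for Aqp1, 1.71 ± 0.41 for Car2, 2.55 ± 0.62 for Slc4a1, 3.71 ± 0.96 for Ermap, 2.78 ± 0.74 for Sptb and 0.58 ± 0.20 for Bnip3l. Car1, Rhag, Klf1 and Gata1 had 0 counts in both WT libraries with R848, and no size is given for them. A higher response need not be a rise. In Padi4 KO itself Slc4a1, Aqp1 and Sptb passed as higher with R848 (background 19.2%), and Car1 and Bnip3l as lower (background 15.9%). The others did not pass there. In WT all of the 10 but Slc4a1 passed as lower (background 16.0%). The set was chosen with the erythroid signal of these Padi4 KO libraries known. In levels scaled by edgeR, both WT libraries with R848 lay below both Padi4 KO libraries with R848 for 9 of the 10, and Bnip3l overlapped (31.7 and 34.9 CPM per kb in WT, 41.2 and 31.2 in Padi4 KO). Groups of 2 are too small for a check of single outlying libraries.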

How the results depend on the processing

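Members lower after R848 in Padi4 KO (1) were 0 with DESeq2, 4 by library size alone and 4 when libraries were scaled to the summed erythroid-restricted members, a scaling chosen after seeing the data, and 0 to 3 with each library left out. Members lower after R848 in WT (14) were 5 to 14 with each library left out. Members with a higher response in Padi4 KO (10) were 3 with DESeq2 and 1 to 9 with each library left out. Members lower in unstimulated Padi4 KO (2) were 0 with DESeq2 and by library size alone, and 1 to 2 with each library left out. Members lower in Padi4 KO after R848 (1) were 0 by library size alone. The early class share of all members over the Padi4 KO libraries, 73.7%, was 60.7% without division by length and 59.8% without widely expressed members. It was 69.1% without Car2 and 79.4% without Slc4a1, Hemgn and Car1, a choice made after seeing the data. Unstimulated WT had 71.1% and 67.4% over all members. Tfrc turned from 0.30 to -0.073 by library size alone and to -0.081 when scaled to the restricted members. The cause of these changes was not tested. The other counts stayed within 1.5 times. Calls over all genes moved too, with a higher response in Padi4 KO for 421 genes in edgeR and 35 with DESeq2. With a replicate block all counts were those without it (3, 1, 0, 14, 10, 0, 28, 2, 29 and 1), and the replicate numbers did not pair the libraries (correlations of -0.02 to 0.02 over 6912 genes). No restricted member had more than 14 counts in a WT library, which limits the fold changes against WT.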
